A study of Mus musculus with 24 samples.

Results

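The immunity-related GTPase (IRG) genes are a family of interferon-inducible GTPase genes of the mouse, and the 8 members described here are Irgm1, Irgm2, Igtp, Iigp1, Tgtp1, Tgtp2, Gm12250 and Ifi47. They were chosen by symbol from the 54446 gene identifiers of a count table, as a family put forward with its levels by genotype and time in these same libraries already known. The levels, fold changes and adjusted p-values below are therefore a description of this family and not independent evidence that it responds. All 8 passed the filter on low counts and were among the 15325 genes tested. On GRCm38, with the GENCODE M21 annotation, 4 members form a cluster on chromosome 11: Irgm1 (48861968-48871683, minus strand), Tgtp1 (48985327-48994172, minus), Tgtp2 (49057194-49064206, minus) and Ifi47 (49076587-49096974, plus). Another cluster on chromosome 11 holds Gm12250 (58187739-58189012, plus), Igtp (58199556-58207591, plus) and Irgm2 (58199618-58222782, plus), and Iigp1 lies on chromosome 18 (60376027-60392634, plus). Each count covers the exons of a whole gene, so coding sequence and UTRs are not separated.

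The data are mRNA sequencing counts of CD4+ T cells from the spleens of C57BL6 mice, wild type (WT) or deficient in Aim2 (Aim2-/-), which encodes a cytosolic DNA sensor. Cells of 6 mice, numbered 1, 3 and 4 for WT and 1, 2 and 4 for Aim2-/-, were kept in RP10 medium and were left unstimulated (0 h) or given anti-CD3 and anti-CD28 antibodies, a trigger of the T cell receptor and its costimulator, for 3, 6 or 24 h. The 24 libraries, 1 per mouse and time, make 8 groups of 3 and held 19715161 to 21627018 counts. Aim2 itself was at 15.7 to 20.1 CPM (counts scaled to a common library size by TMM, a method that corrects for differences in library composition) in Aim2-/- mice at 0 h and at 67.5 and 75.0 CPM in WT mice 4 and 3, but at 21.5 CPM in the mouse labelled WT 1, so results of the members between genotypes are given with and without that mouse. The CD4+ T cell markers Cd3e, Cd3g, Trac, Lck and Cd4 summed to 2445 to 3840 CPM in every library, and the markers of other cells are given beside the genotype results.

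IRG proteins are made in cells exposed to interferons, above all interferon gamma, and are known for defending cells against parasites and bacteria that live inside vacuoles. Effector members bind the vacuole membrane and help to break it, while the regulatory members Irgm1, Irgm2 and Igtp (Irgm3) sit on the membranes of the cell and keep the effectors inactive there. In CD4+ T cells Irgm1 is known for limiting the death of activated cells exposed to interferon gamma. Interferons act through the JAK kinases on transcription factors that bind the gamma-activated site (GAS) or, together with IRF proteins, the interferon-stimulated response element (ISRE).

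The sequences just before the start sites show what 6 of the members share and how Ifi47 differs from them. RefSeq promoters of GRCm38.p6 were at hand for 7 members, and 110 bases ending just before the listed start are printed 5′ to 3′ on the strand of the gene. The coordinates of the minus-strand windows (Irgm1, Tgtp1 and Tgtp2) were set by another offset than those of the plus strand. They were not checked against a genome sequence and may be displaced. As printed, the Tgtp2 window begins at 49064413, past the annotated end of the gene at 49064206. Capitals mark matches on either strand to the ISRE core GAAANNGAA or to the GAS sequence TTCNNNGAA, where N is any base.
Irgm1, chr11:48871621-48871730, minus strand: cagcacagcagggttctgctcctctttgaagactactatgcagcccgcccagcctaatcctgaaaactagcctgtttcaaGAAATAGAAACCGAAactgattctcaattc
Igtp, chr11:58199446-58199555, plus strand: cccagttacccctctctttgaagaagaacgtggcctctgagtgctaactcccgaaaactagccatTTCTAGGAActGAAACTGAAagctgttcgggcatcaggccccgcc
Irgm2, chr11:58214867-58214976, plus strand: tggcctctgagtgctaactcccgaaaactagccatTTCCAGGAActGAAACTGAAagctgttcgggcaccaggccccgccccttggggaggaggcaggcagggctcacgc
Tgtp1, chr11:48992447-48992556, minus strand: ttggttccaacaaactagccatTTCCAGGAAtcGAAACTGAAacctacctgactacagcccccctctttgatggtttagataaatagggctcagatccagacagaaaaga
Tgtp2, chr11:49064413-49064522, minus strand: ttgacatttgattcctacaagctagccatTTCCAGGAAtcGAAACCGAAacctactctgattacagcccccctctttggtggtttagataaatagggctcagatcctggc
Gm12250, chr11:58183733-58183842, plus strand: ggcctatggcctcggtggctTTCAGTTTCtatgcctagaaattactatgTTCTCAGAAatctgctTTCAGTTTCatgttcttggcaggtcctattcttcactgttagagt
Ifi47, chr11:49076477-49076586, plus strand: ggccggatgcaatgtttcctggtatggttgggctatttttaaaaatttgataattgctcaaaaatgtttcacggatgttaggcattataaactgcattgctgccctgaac

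In the 250 bases before the start, 6 of the 7 promoters held the ISRE core, against 7.13% of 32851 RefSeq promoters, and 5 of 7 held the GAS sequence, against 7.02%. Both were present in 5 members (Igtp, Irgm2, Tgtp1, Tgtp2 and Gm12250), against 0.752% of all promoters. These promoters are not all separate cases. The printed bases of Tgtp1 and Tgtp2 were 80.5% identical when aligned, and those of Igtp and Irgm2 share a nearly identical stretch around the matches. In Igtp, Irgm2, Tgtp1 and Tgtp2 the GAS match began 11 bases before the ISRE core on the same strand. Irgm1 held overlapping ISRE core matches that began 30 and 24 bases before the start and no GAS match, and the Gm12250 matches to the ISRE core began 90 and 45 bases before the start on the opposite strand. The listed start of Ifi47 had neither set of letters in this window, which says nothing about other windows. The listed start of Gm12250 lies upstream of the gene body that GENCODE annotates as a processed pseudogene, so its counts cover only that annotated body. A match of letters is a description of the sequence, and no binding was measured.

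Some members share sequence, which limits what their separate counts mean. Of the 51-base windows of Tgtp1 transcripts 79.24% also occur in Tgtp2 transcripts, and of the Tgtp2 windows 85.66% occur in Tgtp1, so the split between these paralogs is uncertain and they are also given summed. Igtp and Irgm2 overlap on the same strand over 162 exon bases, and 11.57% of the Igtp windows occur in Irgm2. Ifi47 shares 111 exon bases on the same strand with Olfr56, and Tgtp1 shares 223 with Gm12185, a further IRG relative. Irgm1, Iigp1 and Gm12250 were nearly or wholly free of shared windows (0.36%, 1.57% and 0%). The library kit keeps strand, but the strand setting of the counting is not given in the sources used here.

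At 0 h the members spanned a wide range of levels, compared between genes as CPM per kilobase of exon. Igtp, encoding a regulatory GTPase, was highest at 141 ± 14 (SD, n = 3) CPM per kb in WT cells, followed by Ifi47 (Irgd), a GTPase of the family, at 116 ± 9.4. Irgm2 at 39.9 ± 6.8 and Irgm1 at 32.4 ± 5.6 came next, and their libraries overlapped. Gm12250, which corresponds to the effector Irgb10, was at 10.8 ± 2.1 CPM per kb. Tgtp2 (6.20 ± 1.3), Iigp1, the effector Irga6 (5.24 ± 1.7), and Tgtp1 (4.67 ± 0.79), with Tgtp2 a copy of the effector Irgb6, were lowest, and neighbours among these 3 overlapped. The order in Aim2-/- cells was the same except that Iigp1 (9.82 ± 1.3 CPM per kb) stood above Tgtp2 (8.14 ± 0.72), again with overlapping libraries. With the longest transcript in place of all exons as the length, Ifi47 stood above Igtp in WT cells at 0 h.

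At 3 h the same scale ran from Igtp, at 618 ± 107 CPM per kb in WT and 487 ± 95 in Aim2-/- cells, down to Tgtp2, at 27.0 ± 4.2 and 20.0 ± 3.8. Igtp and Ifi47 were again the highest pair and Tgtp1 and Tgtp2 were the lowest pair, while Irgm1, Gm12250, Iigp1 and Irgm2 lay between them with overlapping neighbours. Irgm2 moved down the order, from the third place at 0 h to the sixth at 24 h in both genotypes, and Iigp1 moved up, from the seventh (WT) or the sixth (Aim2-/-) place to the fifth.

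**Figure D1:**
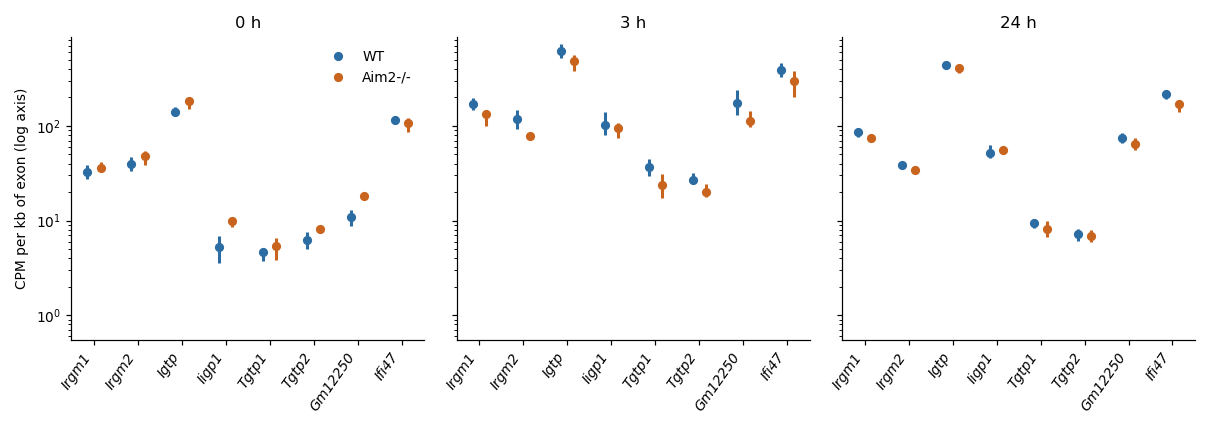
Level of each IRG gene as CPM per kb of exon (log axis) at 0, 3 and 24 h, with points for the mean of 3 mice and bars from the lowest to the highest mouse, WT in blue and Aim2-/- in orange. Igtp and Ifi47 were highest at each of these times, and Tgtp1 and Tgtp2 were lowest after stimulation.

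All 8 IRG genes rose within 3 h of stimulation in both genotypes, and their levels at 24 h differed widely relative to 0 h. In WT cells all 8 were called higher at 3 h and at 6 h against 0 h (edgeR's quasi-likelihood test, Benjamini-Hochberg adjusted p under 0.05), where 16.2% of all tested genes were called higher and 16.4% lower at 3 h, and 26.4% and 24.8% at 6 h. At 24 h, when 36.6% of all genes were called higher and 34.8% lower, 6 members were higher, and Irgm2 and Tgtp2 were not called. In Aim2-/- cells all 8 were called higher at 3 and 6 h, beside 16.1% of all genes called higher and 14.6% lower at 3 h and 28.5% and 22.7% at 6 h. At 24 h 6 were higher and Irgm2 was lower, beside 36.8% of all genes higher and 33.5% lower. The median log2 fold change of the members against 0 h was 2.27, 1.66 and 1.21 at 3, 6 and 24 h in WT and 1.66, 1.21 and 0.84 in Aim2-/- cells, while that of all tested genes lay between -0.01 and 0.08. Summed over the 8 members, the level went from 896 to 1080 CPM at 0 h to 3897 to 5678 at 3 h in WT mice, and from 955 to 1273 to 2776 to 4137 in Aim2-/- mice.

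**Figure D2:**
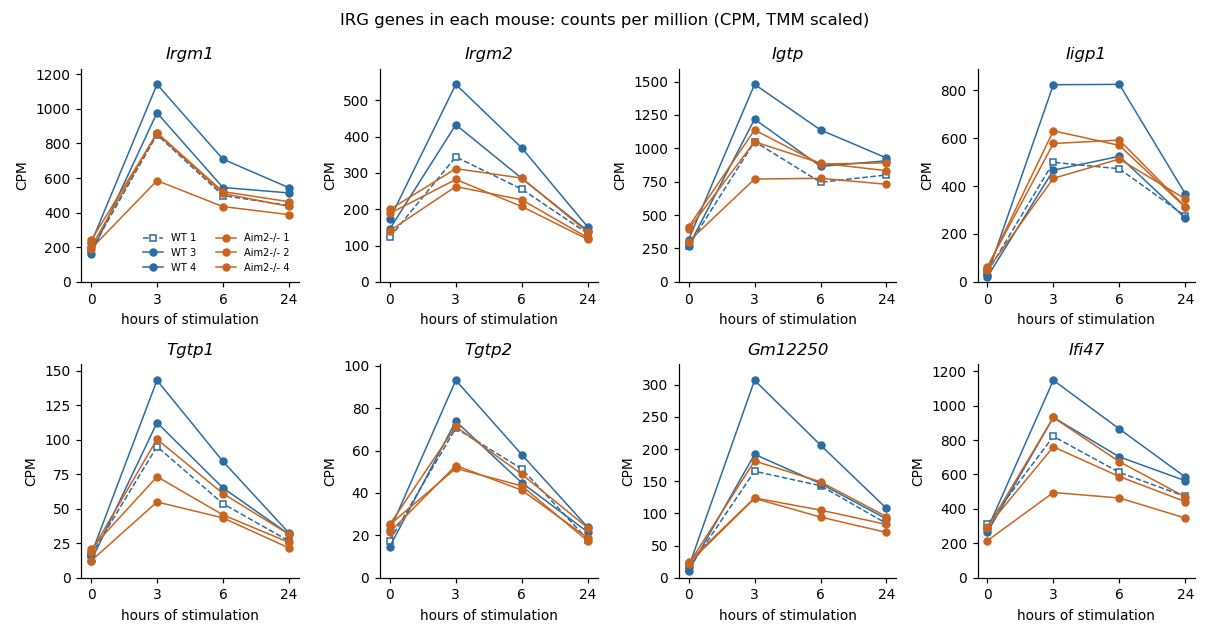
CPM of each IRG gene in each of the 6 mice at 0, 3, 6 and 24 h (axis evenly spaced by time point), WT in blue and Aim2-/- in orange, with the mouse labelled WT 1 as open squares on a dashed line. Lines join the libraries of 1 mouse, and all 8 genes were higher at 3 h than at 0 h in all 6 mice.

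Iigp1, the best-studied IRG effector, had the largest change. In WT mice 1, 3 and 4 it was at 40.4, 20.9 and 30.2 CPM at 0 h, 499, 466 and 823 at 3 h, 472, 524 and 825 at 6 h, and 275, 266 and 368 at 24 h. In Aim2-/- mice 1, 2 and 4 it was at 49.4, 58.3 and 63.9 CPM at 0 h, 432, 631 and 578 at 3 h, 513, 570 and 592 at 6 h, and 346, 311 and 313 at 24 h. The genotypes did not overlap at 0 h, which was so in either direction for 28.5% of all tested genes, and overlapped at each later time, and no stimulated library overlapped the 0 h libraries. The log2 fold change was 4.29 ± 0.27 (SE) at 3 h and 4.31 ± 0.27 at 6 h in WT (adjusted p = 5.6e-10 and 1.1e-10), and 3.26 ± 0.26 and 3.29 ± 0.26 in Aim2-/- cells (1.7e-08 and 3.1e-09). From 3 to 6 h the log2 difference of Iigp1 was 0.03 ± 0.23 in both genotypes (adjusted p = 0.956 in WT and 0.946 in Aim2-/-), and its sign changed between processing alternatives.

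Gm12250 (Irgb10), an effector known for attacking bacterial membranes, followed. In WT mice 1, 3 and 4 it was at 13.6, 11.1 and 16.4 CPM at 0 h and 166, 192 and 307 at 3 h, and in Aim2-/- mice 1, 2 and 4 at 22.5, 21.3 and 25.0 at 0 h and 123, 181 and 124 at 3 h. So every Aim2-/- mouse was above every WT mouse at 0 h, where 28.5% of all tested genes had no overlap in either direction. At 3 h the genotypes overlapped, with Aim2-/- mouse 2 above WT mouse 1. The rise at 3 h was 12.1 to 18.7 fold per WT mouse and 4.95 to 8.54 fold per Aim2-/- mouse, and the fitted log2 values were 4.01 ± 0.25 and 2.64 ± 0.24. At 24 h Gm12250 was still 2.78 ± 0.24 (WT) and 1.85 ± 0.23 (Aim2-/-) above 0 h on the log2 scale.

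The regulatory genes differed in how long they stayed high. Irgm1 was at 182, 159 and 223 CPM in WT mice 1, 3 and 4 at 0 h, 851, 977 and 1141 at 3 h, 499, 545 and 709 at 6 h, and 441, 514 and 544 at 24 h. Igtp was at 269, 267 and 317 CPM at 0 h, 1051, 1218 and 1479 at 3 h, and 801, 907 and 928 at 24 h in the same mice. Both genes stayed well above their 0 h libraries at 24 h, without overlap. Irgm2 was at 123, 146 and 173 CPM at 0 h, 344, 433 and 544 at 3 h, 255, 285 and 369 at 6 h, and 133, 140 and 151 at 24 h, where its libraries lay within the 0 h range. At 24 h against 0 h the log2 fold change was 1.41 ± 0.17 for Irgm1 (adjusted p = 1.5e-07), 1.63 ± 0.17 for Igtp (2.1e-08) and -0.06 ± 0.17 for Irgm2 (0.782). In Aim2-/- cells the values were 1.03 ± 0.17, 1.15 ± 0.17 and -0.49 ± 0.17, the last with adjusted p = 0.0148 (7.3e-05 with the mouse as a block, but 0.0555 without Aim2-/- mouse 2 and 0.134 without mouse 4). The Aim2-/- libraries of Irgm2 were at 141, 199 and 189 CPM at 0 h and 122, 137 and 117 at 24 h, with no overlap between the times. At 6 h Irgm2 was 0.44 ± 0.17 above 0 h in Aim2-/- cells (adjusted p = 0.0359), a call lost without Aim2-/- mouse 1 (0.193), mouse 2 (0.127) or the 0 h library of mouse 4 (0.0806), and in DESeq2 (0.065).

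Tgtp1 and Tgtp2, copies of an effector that coats parasite vacuoles, rose together at 3 h and had different 24 h values. Tgtp1 was at 12.0 to 16.5 CPM at 0 h, 95.1 to 143 at 3 h and 26.6 to 32.5 at 24 h in WT mice. Tgtp2 was at 18.2 ± 3.9 (SD, n = 3), 79.2 ± 12 and 21.2 ± 2.9 CPM at the same times. The 24 h libraries of Tgtp1 were all above its 0 h libraries, and those of Tgtp2 overlapped them (log2 1.01 ± 0.24, adjusted p = 7.7e-04, against 0.22 ± 0.17, 0.257). In Aim2-/- cells the 24 h values were 0.60 ± 0.24 (0.0300, but 0.0511 to 0.217 without mouse 1 or 2, the 0 h library of either, or the 24 h library of mouse 2 or 4, 0.0525 with RLE size factors and 0.053 in limma-voom) for Tgtp1 and -0.26 ± 0.17 (0.166) for Tgtp2, which with the mouse as a block was -0.27 ± 0.10 and called lower (0.0211). Summed, the paralogs were at 2.56 ± 0.20 at 3 h and 0.63 ± 0.19 at 24 h in WT (adjusted p = 7.0e-09 and 0.00583), and at 1.71 ± 0.19 and 0.16 ± 0.19 in Aim2-/- cells (1.3e-06 and 0.451). Ifi47 was at 265 to 311 CPM at 0 h, 821 to 1147 at 3 h and 472 to 585 at 24 h in WT mice, with log2 fold changes of 1.76 ± 0.20 and 0.92 ± 0.20. In Aim2-/- mice it was at 215 to 297, 495 to 931 and 347 to 469 CPM, with 1.45 ± 0.20 and 0.65 ± 0.20.

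**Figure D3:**
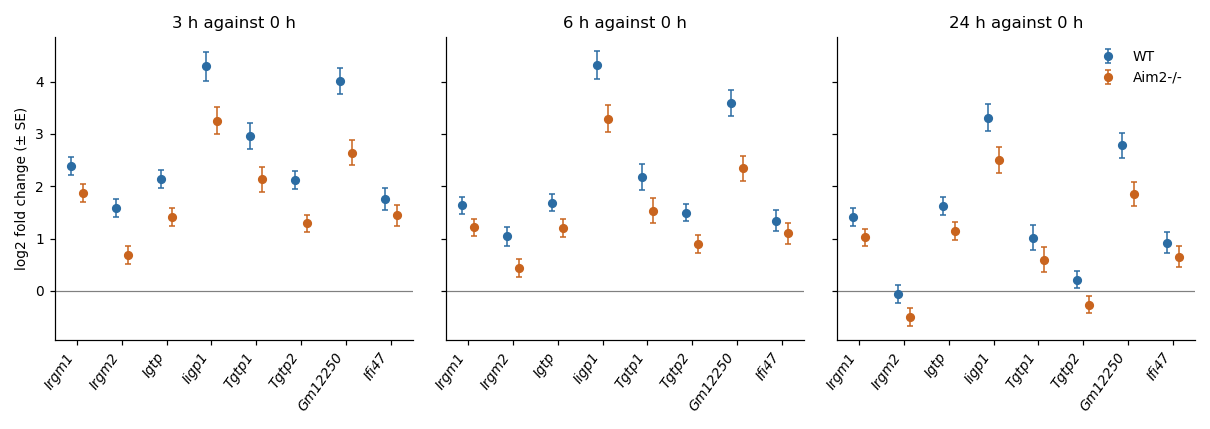
Log2 fold change against 0 h (points, with bars for ± SE) of each IRG gene at 3, 6 and 24 h, WT in blue and Aim2-/- in orange, from the fit over all 24 libraries. Iigp1 (4.29 in WT at 3 h) and Gm12250 (4.01) were the highest, and Irgm2 and Tgtp2 were near or below 0 at 24 h.

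The decline after the 3 h peak was called for part of the family. From 3 to 6 h in WT cells Irgm1, Irgm2, Igtp, Tgtp1 and Tgtp2 fell, 5 of 8 beside 11.5% of all genes called lower, with Irgm1 changing by -0.76 ± 0.16 on the log2 scale (adjusted p = 0.00174) and Igtp only just called (-0.45 ± 0.16, 0.0499). This count was 1 without WT mouse 3, 2 without WT mouse 4 and 3 without the mouse labelled WT 1, and Ifi47 (0.00385) and Gm12250 (0.0107) were also called with the mouse as a block. In Aim2-/- cells only Irgm1 was called lower (-0.65 ± 0.16, adjusted p = 0.00675), beside 9.89% of all genes, and with the mouse as a block it was 5 (Irgm1, Irgm2, Ifi47, Tgtp1 and Tgtp2), beside 15.5%. Without Aim2-/- mouse 2 or mouse 4 no member was called in this comparison, 3 having an unadjusted p under 0.05 with all mice and DESeq2 calling 3. From 6 to 24 h Iigp1, Irgm2, Tgtp1, Tgtp2 and Gm12250 fell in WT cells, beside 28.0% of all genes, and Iigp1, Irgm2, Tgtp1 and Tgtp2 in Aim2-/- cells, beside 27.0%, where Iigp1 was not called without Aim2-/- mouse 2 (adjusted p = 0.0623) or mouse 4 (0.0773). In WT cells Tgtp2 (-1.28 ± 0.17), Tgtp1 (-1.16 ± 0.23) and Irgm2 (-1.10 ± 0.17) changed most in this interval, whereas Igtp changed by -0.06 ± 0.16. With the mouse as a block Irgm1 (0.0492) and Ifi47 (0.00154) were called lower as well in WT, and Ifi47 (8.9e-04) and Gm12250 (0.00165) in Aim2-/- cells.

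Between genotypes, Iigp1 was the member called at 0 h, higher in Aim2-/- cells by 0.91 ± 0.24 on the log2 scale (adjusted p = 0.0377), beside 3.24% of all genes called higher. It was 1.17 ± 0.26 (0.0157) without the mouse labelled WT 1, but was not called without any one of the other 5 mice (0.66 to 1.01, adjusted p = 0.0514 to 0.214), and over the 22 fits made its adjusted p ran from 9.4e-05 to 0.214. Gm12250 was 0.74 ± 0.24 higher at 0 h without being called (adjusted p = 0.0691). In the same libraries the sums of other cell types' markers were also higher in Aim2-/- cells: 6 myeloid markers at 99.6 to 325 CPM against 31.4 to 52.1 in WT, 4 neutrophil markers at 87.7 to 218 against 20.8 to 24.0, 5 B cell markers at 10.1 to 34.2 against 3.19 to 4.60, 4 dendritic cell markers at 22.0 to 48.0 against 12.0 to 18.6 and 3 NK cell markers at 89.2 to 112 against 31.7 to 52.5. Of these lists 2 of 6, 1 of 3 tested, 2 of 5, 1 of 4 and 1 of 3 markers were called higher, Ly6g was at 0 counts in all WT libraries and Ms4a1 at 1 to 2. The 4 erythroid markers summed to 15.9 to 254 CPM against 6.13 to 53.6, and the 2 CD8 T cell markers to 8.12 to 10.9 against 9.76 to 11.4. The part of these markers in the Iigp1 result was not tested, and in bulk libraries more cells of a type and more RNA per cell cannot be told apart.

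After stimulation all 8 members had lower fitted levels in Aim2-/- than in WT cells at 3 h and 6 h, and 7 of 8 at 24 h, where at 0 h this was so for Ifi47 alone, and no single difference passed the threshold. Without WT mouse 4 Iigp1 at 3 h and Iigp1 and Igtp at 6 h were higher in Aim2-/- cells, as were Iigp1 at 3 h without Aim2-/- mouse 1 (0.0207) and Tgtp2 at 24 h without Aim2-/- mouse 4 (0.0044). At 3 h 0 of 8 were called by edgeR, beside 0.294% of all genes, with 6 members at an unadjusted p under 0.05, DESeq2 calling 1 and limma-voom 0. The differences ran from -0.12 ± 0.23 for Iigp1 to -0.63 ± 0.22 for Gm12250 on the log2 scale, with Irgm2 at -0.63 ± 0.17 (adjusted p = 0.110). Without the mouse labelled WT 1 Irgm2 was called at 3 h (-0.78 ± 0.16, 0.0196), and without Aim2-/- mouse 2 the count was 4. The 3 h libraries of Irgm2 did not overlap between genotypes, as for 15.1% of all tested genes in either direction, being at 344, 433 and 544 CPM in WT and 262, 312 and 282 in Aim2-/- mice. At 6 h 0 of 8 were called, beside 15.8% of all genes, with 1 at an unadjusted p under 0.05 and 0 in DESeq2 and limma-voom. At 24 h 0 of 8 were called, beside 0.666%, with 0 at an unadjusted p under 0.05 and 0 by either other tool. Without the mouse labelled WT 1 the lowest adjusted p of a member in edgeR's test was 0.0798 at 6 h (Irgm2) and 0.283 at 24 h (Ifi47). The median difference of the members was 0.32 at 0 h and -0.42, -0.30 and -0.18 at 3, 6 and 24 h, against -0.01 to 0.05 for all tested genes. At 3 h the marker sums in Aim2-/- against WT libraries were 45.5 to 166 against 20.8 to 38.4 CPM (myeloid), 60.9 to 176 against 12.0 to 21.8 (neutrophil) and 67.6 to 89.3 against 30.6 to 49.1 (NK cell), with 1 neutrophil marker called higher. B cell and dendritic cell sums were also without overlap, at 7.33 to 31.1 against 2.99 to 6.47 and 21.7 to 35.9 against 13.1 to 18.4. At 6 h the sums of these 5 lists did not overlap either, at 55.9 to 177 against 22.0 to 46.0 for the myeloid markers, with 2 B cell markers and 1 neutrophil marker called higher. At 24 h the NK cell sums overlapped, the other 4 did not, the median myeloid sum was 38.8 against 15.9 CPM, and 1 neutrophil marker was called higher. The part of these markers in the differences was not tested.

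**Figure D4:**
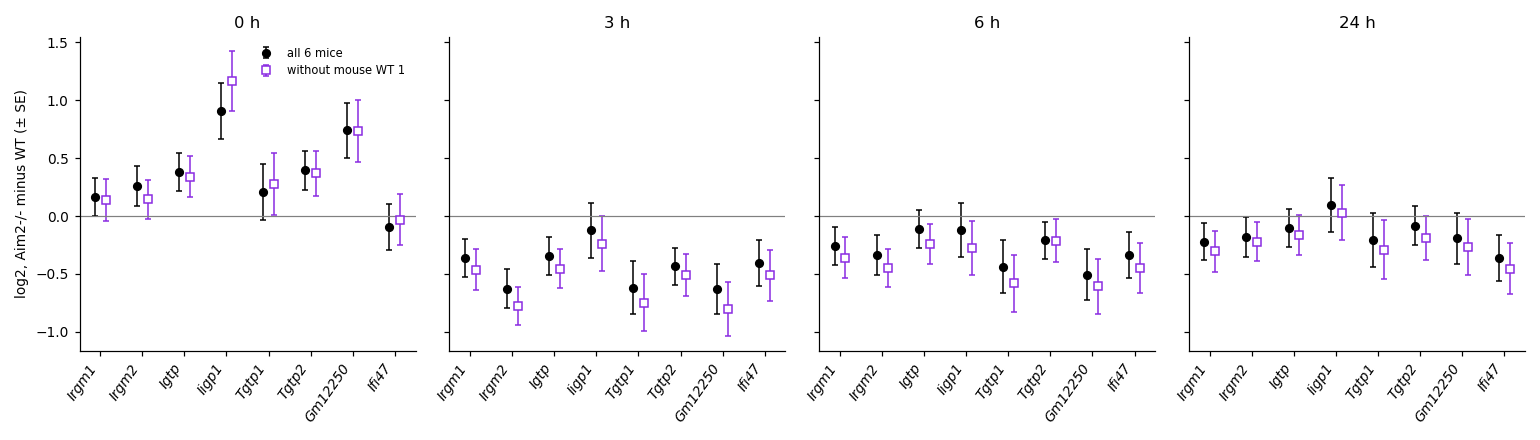
Log2 difference between Aim2-/- and WT cells (points, with bars for ± SE; above 0 is higher in Aim2-/-) for each IRG gene at 0, 3, 6 and 24 h, with all 6 mice (black circles) and without the mouse labelled WT 1 (open squares). The points lie mostly above 0 at 0 h and, with all 6 mice, all below 0 at 3 and 6 h.

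Measured within each mouse, the rise from 0 h was smaller in Aim2-/- mice for most members. At 3 h every Aim2-/- mouse had a smaller log2 change than every WT mouse for 7 of 8 members (all but Ifi47), beside 6.26% of all tested genes. At 6 h this was so for 6 members (Irgm1, Irgm2, Igtp, Iigp1, Tgtp2 and Gm12250), beside 12.9%, and at 24 h for 5 (Irgm1, Irgm2, Igtp, Tgtp2 and Gm12250), beside 10.4%. Igtp, for example, rose 3.91, 4.56 and 4.67 fold by 3 h in WT mice 1, 3 and 4, and 2.55, 2.66 and 2.76 fold in Aim2-/- mice 1, 2 and 4. Irgm2 rose 2.80, 2.97 and 3.14 fold against 1.86, 1.56 and 1.49 fold. Since each change is taken against 0 h, higher 0 h values in Aim2-/- cells enter these smaller rises, as for Iigp1 and Gm12250 above.

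In the fit without pairing, the test of this difference (the interaction of genotype and stimulation) called 0 of 8 members at 3 h, beside 0% of all genes, 0 at 6 h, beside 0.0261%, and 0 at 24 h, beside 0%. Unadjusted p-values under 0.05 were found for 7, 5 and 2 members at 3, 6 and 24 h, and DESeq2 called 0, 1 and 0 and limma-voom none. With each mouse as a block, which the repeated sampling of the same mice allows, the interaction was called lower for Irgm2, Igtp, Tgtp2 and Gm12250 at 3 h, beside 0.0587% of all genes. It was called for Iigp1, Irgm2, Igtp, Tgtp2 and Gm12250 at 6 h, beside 2.38%, and for Igtp and Gm12250 at 24 h, beside 1.27%. Gm12250 had the largest such difference, -1.37 ± 0.18 on the log2 scale at 3 h (adjusted p = 0.00386 with the block, 0.790 without), and Irgm2 was at -0.87 ± 0.13 (0.0106 and 0.947). With the block, the counts of 4, 5 and 2 became 6, 6 and 4 without the mouse labelled WT 1, 2, 1 and 0 without Aim2-/- mouse 1, 2, 4 and 2 without Aim2-/- mouse 2, 0, 1 and 0 without Aim2-/- mouse 4, 0, 0 and 0 without WT mouse 3, and 0, 3 and 1 without WT mouse 4. The interactions of all 8 members at 3, 6 and 24 h were negative in all 33 fits made of each, and these fits reuse the same 6 mice.

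The further genes of the family, listed by sequence relationship, did not follow 1 pattern. Gm4951 and F830016B08Rik, which neighbour Iigp1, rose at all 3 times in both genotypes, and Gm4951 went from 0.155 to 0.456 CPM at 0 h to 3.68 to 11.4 at 3 h in WT, and from 0.677 to 1.13 to 13.3 to 21.8 in Aim2-/- mice. F830016B08Rik was called higher in Aim2-/- cells at 0 h (log2 2.19 ± 0.63, adjusted p = 0.0468), where 2 of 3 WT libraries held 1 count of it. Gm12185, next to Tgtp1, rose by 3.47 (WT) and 2.87 (Aim2-/-) at 3 h on the log2 scale. Other relatives went the opposite way: 9930111J21Rik1 was at 26.3 to 41.5 CPM at 0 h and 1.49 to 1.95 at 24 h in WT, and 9930111J21Rik2 at 34.5 to 46.7 and 1.95 to 3.23. Irgq, a distant relative on chromosome 7, fell at each time in both genotypes, by 1.70 (WT) and 1.49 (Aim2-/-) at 24 h on the log2 scale. Gm5431 stayed under 1 CPM, and Irgc1, known from testis, was not tested, at 0 to 0.747 CPM.

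Of 44 genes within 200000 bases of a member on chromosome 11, 22 were tested. At 3 h 4 were called higher in both genotypes, beside 16.2% and 16.1% of all genes: Gm12185 and Olfr56, which share exon bases with members, and Gemin5 (log2 0.86 in WT, 0.70 in Aim2-/-) and Larp1 (0.84 and 0.73), RNA-binding protein genes. At 3 h 4 were called lower in WT and 2 in Aim2-/- cells, beside 16.4% and 14.6% of all genes, and the median over the 22 was -0.19 and -0.03.

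Among the genes of the interferon pathway, the ligand Ifng rose in both genotypes and stayed high while most IRG genes declined. It was at 16.0, 9.81 and 15.9 CPM in WT mice 1, 3 and 4 at 0 h, 69.2, 34.2 and 42.0 at 3 h and 103, 63.3 and 121 at 24 h, and at 31.8, 16.5 and 32.0, then 63.4, 58.7 and 175, then 434, 169 and 345 in Aim2-/- mice 1, 2 and 4. The Aim2-/- libraries of Ifng were all above the WT libraries at 0 h and 24 h, without being called between genotypes (adjusted p = 0.212 and 0.0605). At 0 h 28.5% of all tested genes had no overlap between genotypes in either direction, and at 24 h that share was not counted. The other 6 interferon genes listed, of types I and III, were too low to test. The receptor genes were down at 24 h: Ifngr1 changed by -3.74 (WT) and -3.30 (Aim2-/-) and Ifngr2 by -3.13 and -2.50 on the log2 scale. All 4 receptor genes were called lower at 24 h in both genotypes, beside 34.8% (WT) and 33.5% (Aim2-/-) of all genes. At 3 h 3 of 4 were called lower in each genotype, beside 16.4% and 14.6%. The remaining receptor gene was called higher at 3 h in WT (log2 0.62), beside 16.2%, and was not called in Aim2-/- cells. The kinase gene Jak1 was lower at each time, reaching -2.04 and -1.96 at 24 h. Of the 3 kinase genes listed, 1 was called higher at 3 h and at 6 h in each genotype. The shares of all genes called higher were 16.2% (WT) and 16.1% (Aim2-/-) at 3 h and 26.4% and 28.5% at 6 h.

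Most of the listed transcription factors of the interferon response rose early. Of 10, 9 were called higher in WT and 8 in Aim2-/- cells at both 3 h and 6 h, beside the 16.2% and 16.1% of all genes called higher at 3 h given above. At 24 h 4 and 3 were higher and 5 and 4 lower, near the shares of all genes (36.6% and 36.8% higher, 34.8% and 33.5% lower). From 6 to 24 h 7 were called lower in each genotype, beside 28.0% (WT) and 27.0% (Aim2-/-) of all genes. Irf8 was called higher, by 1.39 in WT and 1.40 in Aim2-/- cells on the log2 scale. The share of all genes called higher in this interval is not given here. Irf1 was 1.81 (WT) and 1.17 (Aim2-/-) above 0 h at 3 h on the log2 scale and 0.06 and -0.12 at 24 h. Of the 6 inhibitors, Socs1, which blocks JAK kinases, rose by 4.27 and 3.10 at 3 h and was still at 3.09 and 2.57 at 24 h. Between genotypes at 0 h, Socs1 was called higher in Aim2-/- cells (0.88 ± 0.24, adjusted p = 0.037), as Iigp1 was, in the libraries with more of the other cell types' markers. Usp18, which restrains the type I interferon receptor, was at 3.30 and 2.58 at 3 h.

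The guanylate-binding protein (GBP) genes, which encode larger interferon-inducible GTPases that act on the same vacuoles, had a like time course. Of 11, 10 were called higher at 3 h in both genotypes, beside 16.2% (WT) and 16.1% (Aim2-/-) of all genes. At 24 h 6 were higher in each, beside 36.6% and 36.8% of all genes. At that time 2 were lower in WT and 1 in Aim2-/- cells, beside 34.8% and 33.5%. Their median log2 fold change was 2.96, 2.28 and 1.17 at 3, 6 and 24 h in WT and 2.59, 1.85 and 1.02 in Aim2-/- cells. Between genotypes their median log2 difference was 0.16, -0.32, -0.54 and -0.11 at 0, 3, 6 and 24 h. Of 12 tested further interferon gamma targets, such as the chemokine genes Cxcl9 and Cxcl10, 9 (WT) and 7 (Aim2-/-) were higher at 3 h. Of 16 type I interferon targets 11 and 10 were higher then. Both counts stand beside the 16.2% and 16.1% of all genes called higher at 3 h. At 24 h 4 of the type I list were higher and 6 lower in WT, and 4 and 4 in Aim2-/- cells. These counts were near or below the shares of all genes at 24 h given above. Rsad2, an antiviral gene of this list, was at -3.30 (WT) and -2.92 (Aim2-/-) at 24 h. Between genotypes, Cxcl9 was called higher in Aim2-/- cells at 3, 6 and 24 h, by 2.98, 2.77 and 2.64 on the log2 scale, and Cxcl10 at 24 h by 2.09. At these times 0.294%, 15.8% and 0.666% of all genes were called in either direction. The Aim2-/- libraries also had higher myeloid and dendritic cell marker sums at 3, 6 and 24 h. The part of these markers in the Cxcl9 and Cxcl10 values was not tested. Genes for ATG8 conjugation, the autophagy machinery that IRG proteins work with, were also counted: of 10, 3 (WT) and 4 (Aim2-/-) were called lower at 3 h, beside 16.4% and 14.6% of all genes, with Map1lc3a reaching -3.41 and -3.53 at 24 h and Atg7 rising to 1.65 and 1.19.

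**Figure D5:**
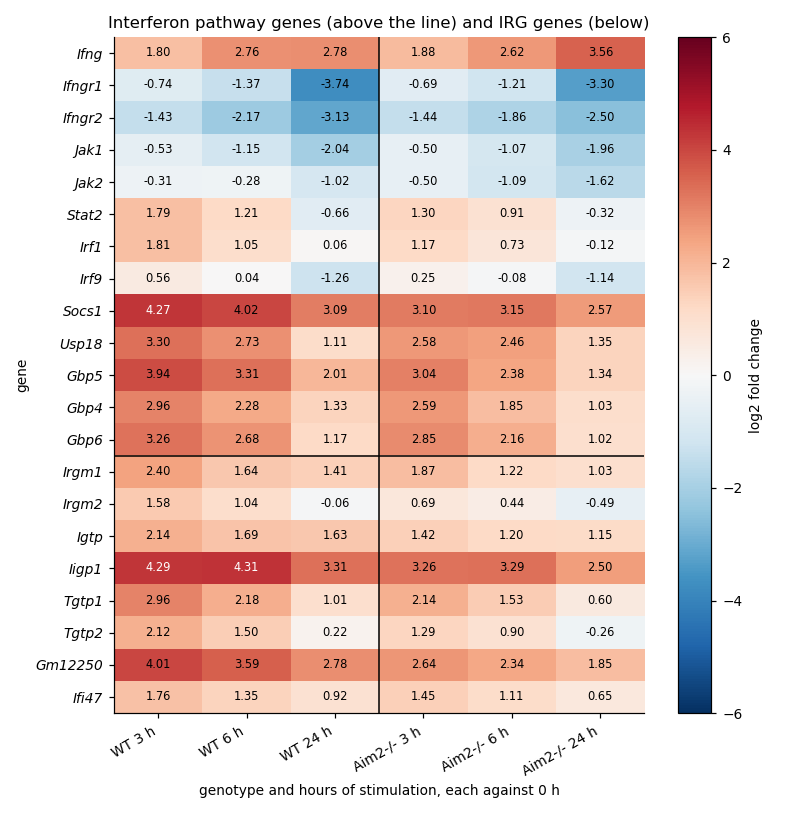
Log2 fold change against 0 h (number and colour in each cell, red higher and blue lower) of interferon pathway genes, above the horizontal line, and of the IRG genes, below it, for WT (left) and Aim2-/- (right) at 3, 6 and 24 h. Ifng was above 0 h at 3, 6 and 24 h, the receptor genes Ifngr1 and Ifngr2 fell, and Irf1 and the IRG genes were highest at 3 h or 6 h.

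The members varied together over the 24 libraries, though not equally. Pearson's r between pairs, which includes the shared time course and shared libraries, ran from 0.572 for Irgm2 and Iigp1 to 0.975 for Iigp1 and Gm12250. Irgm2 and Tgtp2, the members back near their 0 h level at 24 h, had r = 0.957, and Tgtp1 and Tgtp2, which share reads, 0.938. After the mean of each group was taken out, r ran from 0.478 (Irgm2 and Iigp1) to 0.929 (Tgtp1 and Ifi47), so mice high for one member were mostly high for the others. WT mouse 4 was the highest WT mouse at 3 h for all 8 members, and Aim2-/- mouse 1 was the lowest Aim2-/- mouse at 3 h for 7 (all but Tgtp2).

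The genes whose pattern was most like the mean of the members' standardised log2 CPM over the 24 libraries included several GBP genes. Leaving out clone-named genes, the first 10 by Pearson's r were Gbp5 (0.983), Gbp4 (0.980), Gbp6 (0.974), Usp18 (0.971), Gbp11 (0.965), Gbp10 (0.963), Calhm6 (0.961), Adk (0.959), Sema7a (0.952) and Zbp1 (0.951). By Spearman's rho 8 of these 10 were also among the first 10, all but Sema7a and Zbp1. These are descriptions over libraries that share mice and times, given without a p-value, and Adk, an adenosine kinase gene, and Sema7a, a semaphorin gene, belong to none of the interferon lists used here.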

How the data were processed

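Total RNA of CD4+ T cells gave stranded mRNA libraries. The deposited file holds raw counts per Ensembl gene, which the authors made with STAR on GRCm38 per the labels. The labels also name DESeq2 and edgeR. Tool versions, the annotation and the strand setting are not given in the sources used here. Groups, mouse numbers and times came from the sample titles.

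Genes were named with the GENCODE M21 annotation, which matched 54409 of 54446 identifiers. Counts were fitted with edgeR 4.0.16 (quasi-likelihood test, two-sided) over all 24 libraries with a mean for each of the 8 groups, TMM scaling and filterByExpr with a minimum count of 10. This left 15325 genes, with 16042 others holding some counts untested. P-values were adjusted by Benjamini-Hochberg within each comparison, and a gene was called at an adjusted p under 0.05. The SE is the absolute log2 fold change divided by the square root of F. The biological coefficient of variation was 18.6%. CPM are scaled by TMM, and 3 counts, the floor for a gene not detected, were 0.129 to 0.155 CPM. The spread behind each SE was estimated over all 24 libraries and partly shared between genes, not from the 3 mice of a group alone. Without a mouse block, the 4 libraries of a mouse were treated as separate. The fit was tested on simulated data for the comparisons of 3 h against 0 h only. The simulated counts had no differences between mice, and the genotype and interaction tests were not simulated.

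The labels give the same mouse at all 4 times. Deviations from group means correlated between libraries of the same mouse (r 0.139 to 0.567 in 36 pairs), so the mouse numbers pair the samples within a genotype. Between different mice of a genotype r was -0.432 to 0.0742 in 72 pairs. Taking out the mean of 3 mice itself pushes the latter values below 0, so they add no evidence of pairing. Values with the mouse as a block stand beside results they change. WT and Aim2-/- mice of one number share only the number.

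The members and all gene lists were chosen with earlier results of these data known. Named genes were the members, their relatives, Aim2, up to 4 called genes of each list with the largest change (Ifng, Irf1 and Socs1 always, and 1 further gene that is not reported here), the 10 genes most like the members and tested neighbours. Ly6g and Ms4a1 were named after their values were seen. Alternatives were DESeq2 1.42.0, limma-voom (limma 3.58.1), other scalings and filters, blocks, left-out libraries and mice, and summed Tgtp1 and Tgtp2. Fits with the mouse block and a mouse left out were added after seeing the data. Promoter sequences are from RefSeq (GRCm38.p6).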

Additional observations from a re-analysis of the deposited data

Results flagged for a closer look

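Tgtp2 at 24 h was picked out because the mice of the genotypes moved in opposite directions. Against 0 h it was 1.03, 1.47 and 1.07 fold in WT mice 1, 3 and 4 and 0.876, 0.935 and 0.694 fold in Aim2-/- mice 1, 2 and 4. The test of the difference itself, the interaction of genotype and stimulation at 24 h, gave -0.48 ± 0.24 (SE) on the log2 scale with adjusted p = 0.435 in edgeR's test, and 0.0653 with the mouse as a block. For Tgtp1 and Tgtp2 summed it was -0.47 ± 0.27 (0.503). The difference was therefore not called, and 85.66% of the 51-base windows of Tgtp2 transcripts also occur in Tgtp1 transcripts, so the split of their counts is uncertain.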

How the results depend on the processing

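With 3 mice a group, differences near the spread between mice are called or not depending on the fit. The rise of all 8 members at 3 h was called under every alternative run. Scaling by library totals alone moved the median of all genes by over 0.1 in 3 of the 17 comparisons, from 0.02 to 0.12 for WT at 3 h, from 0.02 to 0.13 for Aim2-/- at 3 h and from 0.08 to 0.20 for Aim2-/- at 6 h. Levels per kb of Irgm1, Iigp1 and Ifi47 depend on the length used. Causes of the changes below were not tested.

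Of the values under alternatives, 2654 kept their direction and side of the threshold or stayed close, 125 came to pass it, 61 lost it and 34 changed sign. The members called from 3 to 6 h numbered 3 in WT with only the libraries compared, and in Aim2-/- 2 with RLE size factors or library totals, 3 with no filter on low counts, with a mean of at least 1 CPM or in DESeq2, and 0 with only the libraries compared. Between genotypes at 0 h the count was 2 with no filter or in DESeq2 and 0 with only the libraries compared, and with no filter it was 3 at 3 h and 3 at 6 h, and in DESeq2 1 at 3 h. With no filter the interaction was called for 1, 2 and 1 members at 3, 6 and 24 h, and in DESeq2 for 1 at 6 h.

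With the mouse as a replicate block the call from 3 to 6 h in Aim2-/- cells covered 5 members and the interaction 4, 5 and 2 at 3, 6 and 24 h. With the block the interaction counts were 6, 6 and 4 without the mouse labelled WT 1, 0, 0 and 0 without WT mouse 3, and 0, 3 and 1 without WT mouse 4. They were 2, 1 and 0 without Aim2-/- mouse 1, 2, 4 and 2 without Aim2-/- mouse 2, and 0, 1 and 0 without Aim2-/- mouse 4. With the mouse as a random effect the count between genotypes was 1 at 3 h and 1 at 6 h. WT and Aim2-/- mice share only their numbers: with that number as a block the counts between genotypes were 3, 7, 6 and 2 at 0, 3, 6 and 24 h, with deviations of same-numbered mice correlating at -0.165 to 0.300. The shares of all tested genes called with that block are not given here. These counts can therefore not be read as particular to the members.

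Leaving out a library or mouse gave 1 to 5 members called from 3 to 6 h in WT and 0 to 3 in Aim2-/- cells, 5 to 6 and 3 to 6 from 6 to 24 h, 8 to 8 and 7 to 8 at 6 h against 0 h, 6 to 6 and 5 to 7 at 24 h against 0 h, and 0 to 1, 0 to 4, 0 to 1 and 0 to 0 between genotypes at 0, 3, 6 and 24 h.

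The values that changed sign, on the log2 scale, were small. Iigp1 from 3 to 6 h was -0.0064 with RLE size factors and -0.0063 in DESeq2 in WT, and in Aim2-/- cells -0.0194 and -0.0195 with the same tools, -0.0292 with no filter, -0.0159 with a mean of at least 1 CPM and -0.0062 with only the libraries compared. With the mouse number as a block Iigp1 between genotypes at 24 h was -0.052. Tgtp2 in Aim2-/- cells at 24 h was 0.1634 when added to Tgtp1, where Tgtp1 was no longer called. With 1 library left out, Iigp1 from 3 to 6 h ran from -0.2576 to 0.3321 in WT (-0.0586 without mouse 3) and from -0.1141 to 0.1459 in Aim2-/- cells (-0.0558 without mouse 1), Irgm2 in WT at 24 h from -0.2275 to 0.0288, and Igtp from 6 to 24 h from -0.1921 to 0.1227 in WT (0.0665 without mouse 4) and from -0.1189 to 0.022 in Aim2-/- cells. Between genotypes, Ifi47 at 0 h ran from -0.2068 to 0.0118 (0.0409 without Aim2-/- mouse 1), Iigp1 at 3 h from -0.2751 to 0.1789 (0.0207 without Aim2-/- mouse 1 and 0.174 without WT mouse 4), Igtp at 6 h from -0.2407 to 0.0746 (0.0315 without WT mouse 4), Iigp1 at 6 h from -0.2753 to 0.1623 (0.1192 without WT mouse 4) and Tgtp2 at 24 h from -0.2256 to 0.0091 (0.0044 without Aim2-/- mouse 4).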
